A study of Mus musculus with 6 samples.

Results

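The serum amyloid A family of the mouse was examined in liver RNA of alkaline sphingomyelinase knockout and wildtype animals. Its members, chosen by their knockout and wildtype values and the ratio between them, were taken by name from the deposited gene table as Saa1, Saa2, Saa3 and Saa4, which are 4 of 23415 listed genes, and all 4 were tested by the authors. The knockout group (animals 82, 84 and 85) lacks alkaline sphingomyelinase, the product of Enpp7, and the wildtype group (animals 81, 83 and 90) does not. All 6 mice were on the C57BL/6 background. The genotype was read from the letter K or W at the start of each sample name. Age, sex, treatment and the way the deletion was made were not stated. Liver is the labelled tissue, and the design description instead names intestinal tissue. The authors give 1 value per group, taken here as FPKM, fragment counts scaled for transcript length and library size, and values per mouse were not used here. Ratios are log2 of knockout over wildtype, and the standard error (SE) after a ratio is the one implied by the authors' test statistic. It is an error of their model and not a spread between mice.

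Serum amyloid A proteins are small apolipoproteins that travel on high-density lipoprotein (HDL). In inflammation, interleukin-1, interleukin-6 and tumour necrosis factor induce Saa1 and Saa2 in hepatocytes through NF-kappaB, C/EBP and STAT3 factors. Serum amyloid A can be deposited as amyloid when its level stays high. Saa3 is also made outside hepatocytes, among other cells by macrophages and adipocytes. Saa4 encodes the constitutive form, which is present on HDL without inflammation.

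The 4 genes form 1 cluster of 42.3 kb on chromosome 7 (mm10, 46711998 to 46754314). In the deposited table Saa3 spans 46711998 to 46715676, Saa4 46727999 to 46732543, Saa1 46740499 to 46742980 and Saa2 46751833 to 46754314. Saa1, Saa3 and Saa4 lie on the minus strand and Saa2 on the plus strand, so that Saa1 and Saa2 are transcribed away from each other from start sites 8.85 kb apart. In GENCODE M21 (GRCm38, the same build) the coding transcript closest to each deposited span has 4 exons in every member. No other GENCODE gene overlaps any of the 4 deposited spans. RefSeq lists Saa2 among the synonyms of Saa1 and Saa1 among those of Saa2, so a name in older work can mean either gene, and the coordinates above say which is meant here.

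The 90 coding bases in which Saa1 and Saa2 differ most are shown because they carry 11 of the 18 coding differences between the 2 genes. Short reads of the 2 genes can be told apart only where they cover a difference, and other differences lie outside this stretch. The bases shown are coding bases 60 to 149 of the GENCODE transcripts, 5′ to 3′, with the 11 differing bases in capitals.
Saa1: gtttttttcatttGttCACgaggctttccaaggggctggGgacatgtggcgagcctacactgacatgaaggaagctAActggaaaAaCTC
Saa2: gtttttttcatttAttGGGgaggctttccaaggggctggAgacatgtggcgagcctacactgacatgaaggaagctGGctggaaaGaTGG
Over the whole coding sequence Saa1 and Saa2 differed at 18 of 366 positions (95.1% identity), and the longest run without a difference was 73 bases. Saa3 was 75.9% identical to Saa1 and 74.9% to Saa2. Saa4 was the most distant member, with 65.0% identity to Saa1, 64.5% to Saa2 and 63.5% to Saa3.

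The libraries were read in single-end reads of 50 nt. Of the 560 windows of that length in the Saa1 transcript, 83 (14.8%) also occurred in a transcript of another family member, and of the 557 windows of Saa2, 74 (13.3%) did. With up to 2 mismatches allowed the shares were 45.9% for Saa1 and 38.4% for Saa2. Saa3 shared 9 of 506 windows with Saa1, and Saa4 shared 0 of 2045 with any member. None of the windows of Saa1, Saa2 and Saa3 occurred in a transcript of a gene outside the family, while 28 of the windows of Saa4 did. How reads that fit several genes were placed was not stated, so the split between Saa1 and Saa2 is less certain than their sum.

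Saa2 stood at 17481 FPKM in knockout liver and 86.2 FPKM in wildtype liver, a log2 ratio of 7.66 ± 0.69 (SE). Saa1 stood at 14989 FPKM in knockout liver and 169 FPKM in wildtype liver, a log2 ratio of 6.47 ± 0.65 (SE). Both genes of the inducible hepatocyte pair were thus far higher in the group labelled knockout. The ratio of Saa2 exceeded that of Saa1 by 1.19, against a combined SE of 0.95. A combined SE takes the errors of both genes as independent, which was not tested. The genes were read from the same libraries, and Saa1 and Saa2 share read windows, so their errors may be linked.

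Saa3 stood at 124 FPKM in knockout liver and 12.4 FPKM in wildtype liver, 9.99-fold (log2 ratio 3.32 ± 0.32, SE). Saa4, the constitutive member, stood at 293 FPKM in knockout liver and 183 FPKM in wildtype liver, 1.60-fold (log2 ratio 0.68 ± 0.26, SE). The ratio of Saa3 lay 3.15 below that of Saa1 (combined SE 0.72) and 2.64 above that of Saa4 (combined SE 0.42). These combined SEs also take the errors as independent. Each member was higher in knockout liver, over a range of log2 ratios from 0.68 to 7.66.

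The contrast between knockout and wildtype led to the choice of these genes, so their ratios and differences in ratio are a description. No test is drawn from them. The authors' deposited table calls 3 of the 4 members at a q under 0.05, all but Saa4, where 1.08% of the 11515 tested genes are called (0.573% as higher and 0.504% as lower). The same 3 stand in the authors' short list of 95 differential genes, in which the smallest absolute log2 ratio is 1.01. Among tested genes with a finite ratio, Saa2 had the highest ratio, Saa1 ranked 5, Saa3 ranked 21 and Saa4 ranked 405.

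**Figure D1:**
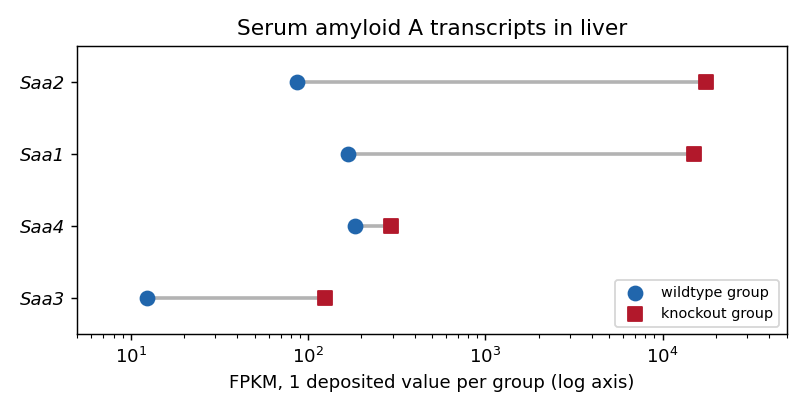
Deposited FPKM of each Saa gene (log axis) in wildtype liver (blue circles) and the knockout group (red squares), 1 value per group and so no error bars. Saa2 runs from 86.2 to 17481 FPKM and Saa1 from 169 to 14989 FPKM, while Saa4 runs from 183 to 293 FPKM.

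The order of the levels differed between the groups. In wildtype liver Saa4 was the highest at 183 FPKM, followed by Saa1 (169 FPKM), Saa2 (86.2 FPKM) and Saa3 (12.4 FPKM). In knockout liver the order was Saa2, Saa1, Saa4 and Saa3. With 1 value per group no spread exists for a level, so it cannot be said which neighbours in either order differ, and Saa4 and Saa1 in wildtype lie as close as a ratio of 0.922. FPKM is scaled for transcript length, which allows levels of different genes to be set side by side.

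The make-up of the family was different in the 2 groups. In wildtype liver Saa4 made up 40.6% of the family's summed FPKM, Saa1 37.5%, Saa2 19.1% and Saa3 2.76%. In knockout liver Saa2 made up 53.2%, Saa1 45.6%, Saa4 0.891% and Saa3 0.377%. Within the inducible pair, Saa1 held 66.2% of the FPKM of both genes in wildtype liver and 46.2% in knockout liver. Saa1 and Saa2 together were 1.39 times Saa4 in wildtype liver and 110.8 times Saa4 in knockout liver.

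Summed over the 4 genes, the family reached 32888 FPKM in knockout liver and 450.2 FPKM in wildtype liver, 73.1-fold (log2 ratio 6.19). The sum depends little on how reads were divided between the near-identical genes. The family held 5.09% of all listed FPKM in knockout liver and 0.0797% in wildtype liver. In knockout liver Saa2 ranked 2 and Saa1 ranked 4 among all listed genes, with Apoa2 (18956 FPKM) above Saa2 and Apoa1 (16007 FPKM) between the 2. In wildtype liver they ranked 916 and 545. Saa4 ranked 348 in knockout liver and 497 in wildtype, and Saa3 ranked 702 and 3927. Alb and Apoe are listed at 0 in both groups, under a mark that in such tables stands for too many fragments, and so they have no place in these ranks and sums.

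**Figure D2:**
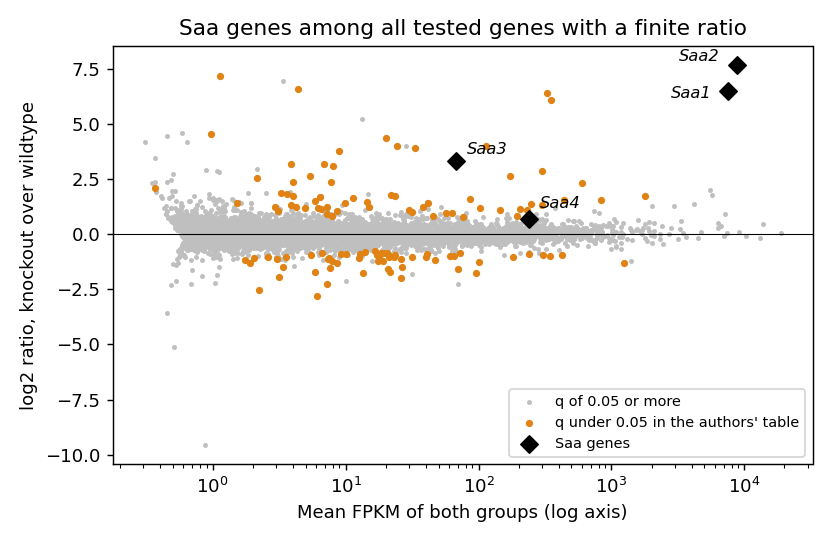
Log2 ratio of knockout over wildtype against the mean FPKM of both groups (log axis) for tested genes with a finite ratio, with genes of q under 0.05 in the authors' deposited table in orange and the Saa genes as black diamonds. Saa1 and Saa2 lie at the upper right, with ratios of 6.47 and 7.66, above Hp at 2.01, the nearest named gene of like abundance.

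The listed FPKM values summed to 646306 in knockout liver and 564749 in wildtype liver. Equal sums lower each log2 ratio by 0.19, or by 0.12 when the Saa genes are left out of the sums, and move the median over tested genes from -0.0012 to -0.20. All 4 members kept a ratio above 0 under both scalings and under quantile normalization. The calls over all genes moved from 66 higher and 58 lower to 49 higher and 140 lower after scaling to equal sums.

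The genes whose ratio lay nearest to each member were found over the 2 group values, with the difference in log2 ratio as the measure of likeness. For Saa1 these were Lcn2 (an iron-scavenging protein) and Ngp (a neutrophil granule protein), each 0.08 away. For Saa2 they were Ltf (lactoferrin, 0.52 away) and Camp (cathelicidin, 0.72 away), which are neutrophil granule proteins as well. Ltf, Camp and Ngp were barely detected in wildtype liver, at 0.0158, 0.0542 and 0.0928 FPKM. Among genes with a mean FPKM within 10-fold of Saa1 and Saa2, the nearest were Hp (haptoglobin, 4.46 away from Saa1 and 5.65 from Saa2) and Hpx (hemopexin, 4.72 and 5.91 away).

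For Saa3 the nearest ratios were those of Tnfaip3, a feedback inhibitor of NF-kappaB, and Crybb3, a beta crystallin, each 0.13 away. Within 10-fold of its mean FPKM they were Crybb3 and Egr1, an immediate early transcription factor (0.24 away). For Saa4 they were AF251705 and Csrp3, a muscle LIM protein, 8.4e-05 and 0.00021 away, and at a like mean FPKM Csrp3 and C8a, a chain of complement component 8 made in the liver (367 FPKM in knockout liver, 230 FPKM in wildtype). Likeness over 2 values says little by itself, and near a ratio of 0.68 many genes lie close together.

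Other acute phase proteins of the liver were compared with the family from a list of 34 genes. Of 33 tested members 11 rose, 0 fell and 22 did not pass, by the authors' deposited q, where 0.573% of all tested genes were called higher. All 33 ratios were above 0, where 49.9% of tested genes with a finite ratio were. The median log2 ratio was 1.14, where the median over all tested genes was -0.0012. Scaling to equal sums lowers each ratio by 0.195, which takes Serpina1c (0.125), Hamp (0.181) and Serpina1d (0.187) below 0. The list kept 11 calls under that scaling. An unadjusted p under 0.05 was found for 20 of the 33, and for 609 of the 11515 tested genes. The 5 with the smallest p were Lcn2, Orm2, Mt2, Mt1 and Apcs. Lcn2 rose from 7.72 to 649 FPKM. Orm2, an alpha-1-acid glycoprotein, rose from 10.2 to 697 FPKM, and Mt2, a metallothionein, from 13.4 to 213 FPKM. Summed, this list held 62929 FPKM in knockout liver and 28790 FPKM in wildtype. The 4 Saa genes together stood beside these 34 genes at 32888 FPKM in knockout liver. The Orm and metallothionein genes have related copies, and how far these share reads was not tested.

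The cytokines that induce Saa transcription were low in both groups. Of 10 genes on the list 4 were tested, and 0 passed by the authors' deposited q, where 1.08% of all tested genes did. Of the 4, 2 had an unadjusted p under 0.05, where 609 of the 11515 tested genes did. Il6, the gene of interleukin-6, was at 0.0224 FPKM in knockout liver and 0.0271 FPKM in wildtype, and Tnf at 0.175 and 0.0441 FPKM, neither of them tested. Il1b was at 2.38 FPKM in knockout liver and 3.09 FPKM in wildtype. Il1a had the smallest p, at 2.49 FPKM in knockout liver and 1.28 FPKM in wildtype (log2 ratio 0.96, authors' deposited table q = 0.690). RNA of the liver does not measure cytokines that reach it from elsewhere.

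Among 17 tested receptors and transducers of these cytokines, against 0.573% higher and 0.504% lower of all tested genes, 1 rose and 0 fell. This was Socs3, a STAT3 target that inhibits signalling by the interleukin-6 receptor, from 2.55 to 13.0 FPKM (log2 ratio 2.35 ± 0.29, authors' deposited table q = 5.9e-13). Il6ra, the interleukin-6 receptor chain, was at 9.67 FPKM in knockout liver and 14.9 FPKM in wildtype (log2 ratio -0.62, authors' deposited table q = 0.323). After scaling to equal sums it passed as lower (q = 0.0312). The median of the list was 0.08, and 2 of the 17 had an unadjusted p under 0.05, where 609 of the 11515 tested genes did.

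Transcription factors that act on Saa genes or on liver genes in general were compared next. Against 0.573% higher and 0.504% lower of all tested genes, 1 of 16 tested rose and 0 fell. This was Nfkbiz, a nuclear cofactor of NF-kappaB, from 1.41 to 5.07 FPKM (log2 ratio 1.84 ± 0.37, authors' deposited table q = 0.000193). Stat3 was at 23.2 FPKM in knockout liver and 21.3 FPKM in wildtype, Cebpb at 241 and 233 FPKM, Cebpd at 5.97 and 5.93 FPKM, and Rela at 19.5 and 18.8 FPKM. Among other members of the list, Relb, an NF-kappaB subunit, had a log2 ratio of 1.11, Nfkbia, an NF-kappaB inhibitor, 0.81, Nfkb2 0.56 and Cebpa 0.36. None of these 8 genes passed. In the list 3 of 16 had an unadjusted p under 0.05 (Nfkbiz, Relb and Nfkbia), where 609 of the 11515 tested genes did. Transcript levels do not measure the activity of such factors. The list median was 0.06.

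Of 9 receptors and scavenger receptors for serum amyloid A 7 were tested, and 2 rose, against 0.573% of all tested genes called higher. Tlr2, a receptor for microbial lipoproteins, rose from 0.829 to 2.22 FPKM (log2 ratio 1.42 ± 0.40, authors' deposited table q = 0.0422). Marco, a scavenger receptor of macrophages, rose from 2.52 to 5.96 FPKM (log2 ratio 1.24 ± 0.32, authors' deposited table q = 0.0169). After scaling to equal sums neither passed, at q = 0.108 for Tlr2 and q = 0.0717 for Marco. Fpr2, the formyl peptide receptor that binds serum amyloid A on leukocytes, was at 0.924 FPKM in knockout liver and 0.644 FPKM in wildtype, and Scarb1, the HDL receptor, at 68.5 and 55.7 FPKM. The median of the 7 ratios was 0.52. All 7 were above 0, where 49.9% of tested genes with a finite ratio were. An unadjusted p under 0.05 was found for 3 of the 7, and for 609 of the 11515 tested genes.

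Serum amyloid A shares the HDL particle with other apolipoproteins. Of 19 tested HDL partners 1 fell and 0 rose, against 0.504% lower and 0.573% higher of all tested genes. The list median was 0.07, and 1 of the 19 had an unadjusted p under 0.05, where 609 of the 11515 tested genes did. Lipg, endothelial lipase, which cleaves HDL phospholipids, fell from 12.4 to 4.94 FPKM (log2 ratio -1.32 ± 0.25, authors' deposited table q = 4.47e-05). Apoa1, the main HDL protein, was at 16007 FPKM in knockout liver and 11662 FPKM in wildtype, and Apoa2 at 18956 and 18510 FPKM. The sum of Saa1 and Saa2 was 0.929 times that of Apoa1 and Apoa2 in knockout liver and 0.00844 times in wildtype.

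Partners of amyloid deposits and proteases that can cut serum amyloid A were compared too. Against 0.573% higher and 0.504% lower of all tested genes, 1 of 11 tested rose and 0 fell. This was Apcs, the serum amyloid P component found in amyloid deposits, from 47.7 to 296 FPKM (log2 ratio 2.63 ± 0.27). The authors' deposited table gives its q as 0, and it is on the list of acute phase proteins too. Ctss, cathepsin S, was at 44.1 FPKM in knockout liver and 27.5 FPKM in wildtype and did not pass. The list median was 0.15, and 2 of the 11 had an unadjusted p under 0.05, where 609 of the 11515 tested genes did.

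**Figure D3:**
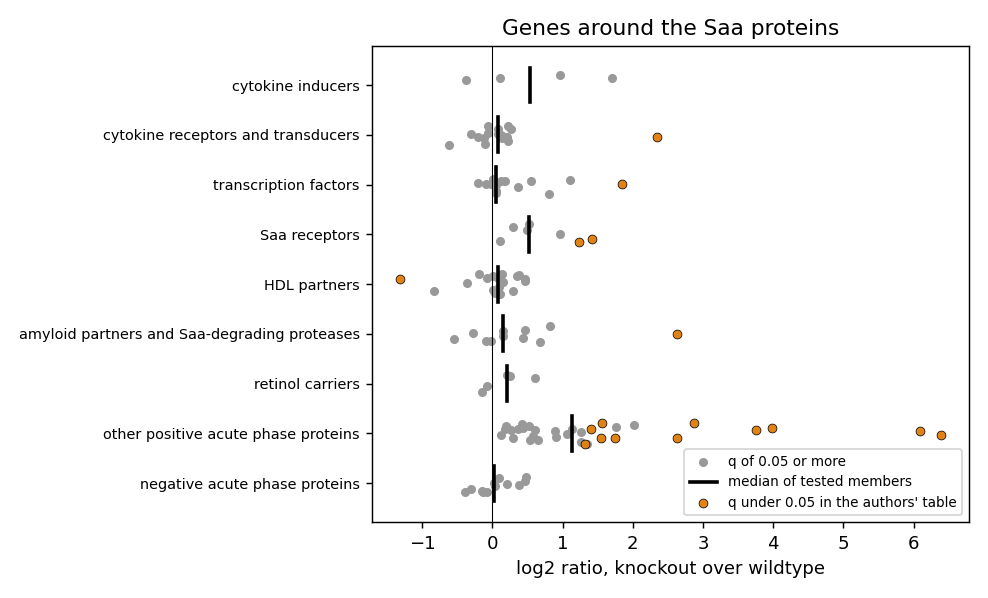
Log2 ratio of knockout over wildtype for the tested members with a finite ratio of 9 gene lists, each point 1 gene, spread vertically at random. Orange points have q under 0.05 in the authors' deposited table and black bars are medians, with the acute phase list at 1.14 and the transcription factors at 0.06.

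Markers of other cell types are given beside the Saa genes, and their part in the Saa levels was not tested. In bulk RNA, fewer cells of a type and less RNA per cell cannot be told apart. Of 10 tested neutrophil markers 4 rose (S100a8, S100a9, Ngp and Ltf), against 0.573% of all tested genes, and the summed level of the 12 listed markers was 110.4 FPKM in knockout liver and 6.75 FPKM in wildtype, with none at 0. Of 14 Kupffer cell and macrophage markers Marco and C1qa (log2 ratio 0.79, authors' deposited table q = 0.0484) rose, and their summed level was 602 FPKM in knockout liver and 391 FPKM in wildtype. An unadjusted p under 0.05 was found for 9 of these 14 and 8 of the 10 neutrophil markers, and for 609 of the 11515 tested genes. Ratios were above 0 for 13 of the 14 and all 10 of the neutrophil markers, where 49.9% of tested genes with a finite ratio were. After scaling to equal sums neither Marco (q = 0.0717) nor C1qa (q = 0.253) passed, while the 4 neutrophil calls remained 4 in number. The 8 adipocyte markers summed to 22.8 and 22.4 FPKM, with 0 of 4 tested members passing, Lep and Retn at 0 in both groups and Adipoq and Plin1 at 0 in knockout liver. The smallest p among the adipocyte markers was that of Adrb3, at 3.36 and 1.97 FPKM. The smallest p among 9 stellate cell and 8 sinusoidal endothelium markers were those of Reln (log2 ratio -0.69) and Ehd3 (log2 ratio -0.54), with 0 passing in either list. Before adjustment 1 adipocyte, 2 stellate cell and 1 sinusoidal marker had a p under 0.05. After scaling to equal sums Reln passed as lower (q = 0.0174). The summed levels were 65.1 and 74.7 FPKM for the first list and 101 and 106 FPKM for the second.

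The tissue label was checked on its markers. Hepatocyte markers summed to 44268 FPKM in knockout liver and 36223 FPKM in wildtype, with Alb listed at 0. Of 13 tested members 0 passed, where 1.08% of all tested genes did, and 2 had an unadjusted p under 0.05. The smallest p was that of G6pc, the enzyme that releases glucose, at 173 FPKM in knockout liver and 308 FPKM in wildtype, and after scaling to equal sums it passed as lower (q = 0.0137). Intestinal epithelium, which can make serum amyloid A as well, was represented by 15 markers that summed to 108 and 88.3 FPKM. None of its 9 tested members passed, and none of the 15 was at 0. Of the 9, 3 had an unadjusted p under 0.05, where 609 of the 11515 tested genes did. The smallest p was that of Tff3, a trefoil peptide of mucosal surfaces, at 48.8 and 23.9 FPKM. Most of the intestinal sum was Tff3 and Fabp2, the latter at 42.9 FPKM in knockout liver and 54.7 FPKM in wildtype. Lyz1 was at 5.49 and 3.25 FPKM, Reg3b at 2.81 and 1.05, Epcam at 2.51 and 2.03, Reg3g at 1.53 and 1.01 and Lgr5 at 1.00 and 0.884. Cdx1, Cdx2, Vil1, Muc2, Sis, Alpi, Krt20 and Cdh17 were each under 1 FPKM in both groups. Of the 9 tested intestinal ratios 8 were above 0, with a median log2 ratio of 0.73, where 49.9% of tested genes with a finite ratio were above 0. Enpp7 stood at 0.141 FPKM in knockout liver and 0.0541 FPKM in wildtype and was not tested, so that its level does not check the genotype labels.

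The genes next to the cluster had ratios far below those of Saa1 and Saa2. With Saa2 ranked 1 and Saa1 ranked 5 among tested genes, nearly any gene would lie below them. Of 11 other listed genes that start within 250 kb of either end, 7 were tested. Of the 7, 2 had an unadjusted p under 0.05, where 609 of the 11515 tested genes did. By the authors' deposited q 0 of the 7 passed, where 1.08% of all tested genes did, so 0 calls among so few genes says little. Their log2 ratios ran from -0.74 to 0.61, with a median of -0.11. Saal1, named serum amyloid A-like, which lies 1.35 kb beyond Saa3, was at 1.29 FPKM in knockout liver and 1.03 FPKM in wildtype. Hps5, a subunit of a lysosome biogenesis complex 6.15 kb beyond Saa2, was at 2.84 and 3.08 FPKM. Ldha, lactate dehydrogenase A, was at 690 and 453 FPKM (log2 ratio 0.61 ± 0.30, authors' deposited table q = 0.889), and Spty2d1, a histone chaperone, at 2.65 and 4.44 FPKM (log2 ratio -0.74 ± 0.26, authors' deposited table q = 0.220). Gtf2h1, a subunit of transcription factor TFIIH, Tsg101, an endosomal sorting protein, and Uevld had ratios of -0.12, -0.11 and -0.0030. Within the cluster itself Saa4, at 0.68, lies between Saa3 at 3.32 and Saa1 at 6.47.

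**Figure D4:**
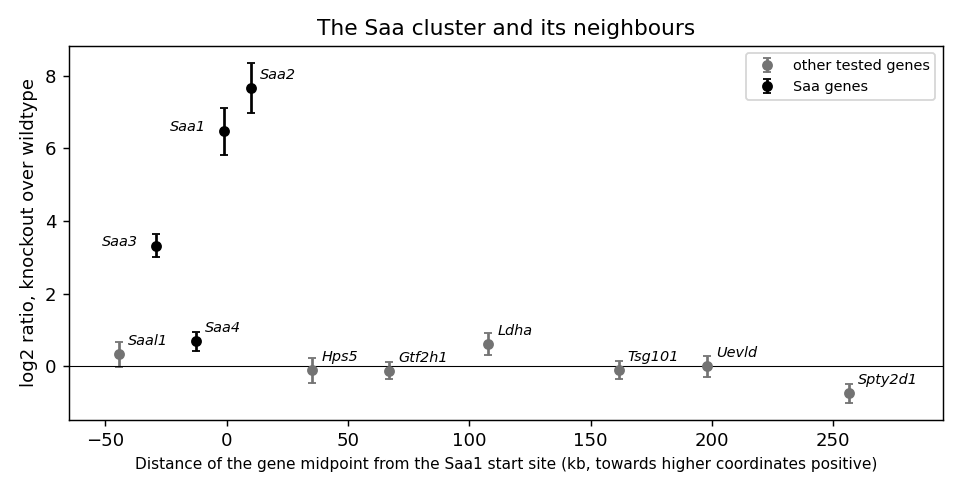
Log2 ratio of knockout over wildtype for the 4 Saa genes (black) and the 7 tested neighbours (grey) against the distance of each gene's midpoint from the Saa1 start site in kb, with bars of 1 SE implied by the authors' statistic. Saa4 at 0.68 sits between Saa3 at 3.32 and Saa1 at 6.47, and the neighbours lie between -0.74 and 0.61.

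The promoters are shown because Saa1 and Saa2, the members with the highest ratios, lie head to head. They are the RefSeq sequences (GRCm38.p6) of the 250 bases before each start site, 5′ to 3′ on the strand of the gene, cut short where a GENCODE exon of the gene begins. Saa1 is chr7:46742981-46743230 (minus strand), Saa2 chr7:46751583-46751789 (plus strand), Saa3 chr7:46715701-46715926 (minus strand) and Saa4 chr7:46732604-46732853 (minus strand). All 4 members were found in the RefSeq table. Capitals mark the letters of the C/EBP core TTNNGNAA and of a loose NF-kappaB form (GGG, 5 bases of any kind and CC), found on either strand.
Saa1: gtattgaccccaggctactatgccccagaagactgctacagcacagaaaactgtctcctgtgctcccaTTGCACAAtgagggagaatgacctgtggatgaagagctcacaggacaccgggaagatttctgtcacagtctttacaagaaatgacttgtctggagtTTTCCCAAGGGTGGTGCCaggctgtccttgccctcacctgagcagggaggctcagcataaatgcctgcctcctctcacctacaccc
Saa2: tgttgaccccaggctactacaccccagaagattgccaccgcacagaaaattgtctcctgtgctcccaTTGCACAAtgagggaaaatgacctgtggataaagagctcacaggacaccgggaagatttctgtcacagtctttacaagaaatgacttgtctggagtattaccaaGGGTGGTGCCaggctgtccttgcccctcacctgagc
Saa3: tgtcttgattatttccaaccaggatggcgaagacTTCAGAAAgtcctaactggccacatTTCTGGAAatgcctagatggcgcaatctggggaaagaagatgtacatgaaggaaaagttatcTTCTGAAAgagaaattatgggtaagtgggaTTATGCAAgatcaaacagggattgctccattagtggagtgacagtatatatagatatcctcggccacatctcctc
Saa4: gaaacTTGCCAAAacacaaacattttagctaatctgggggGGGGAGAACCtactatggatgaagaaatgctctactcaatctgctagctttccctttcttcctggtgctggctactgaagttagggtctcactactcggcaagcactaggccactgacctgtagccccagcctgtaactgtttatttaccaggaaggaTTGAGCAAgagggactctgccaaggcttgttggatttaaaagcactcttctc
In Saa1 the second core and the NF-kappaB letters adjoin and form 1 run of capitals.

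Over the 250 bases, Saa1 and Saa2 were 94.8% identical, close to their coding identity of 95.1%. All other pairs lay between 43.8% and 48.5%, aligned with gaps. The C/EBP core occurred in the 250 bases of all 4 members, and in 36.8% of 32851 RefSeq promoters. Saa1 and Saa2 shared a core at bases -182 to -175 and -183 to -176, counted back from -1 just before the start, and Saa1 had another at -86 to -79. Saa3 had 4 cores, the nearest to its start at -99 to -92, and Saa4 had 2.

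The loose NF-kappaB form occurred in Saa1, Saa2 and Saa4, and in 45.8% of all promoters. In Saa1 and Saa2 it lay at -78 to -69 and at -79 to -70. The stricter form (GGG, 2 bases of any kind and TTTCC), which is contained in the loose one, occurred in 0 members and in 1.41% of promoters. The STAT form TTCNNNGAA occurred in 0 members and in 7.02% of promoters, and TATAAA in 0 members and in 12.4% of promoters. A match is a description of letters and not a bound site, and the low-ratio member Saa4 carried both of the commoner forms.

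**Figure D5:**
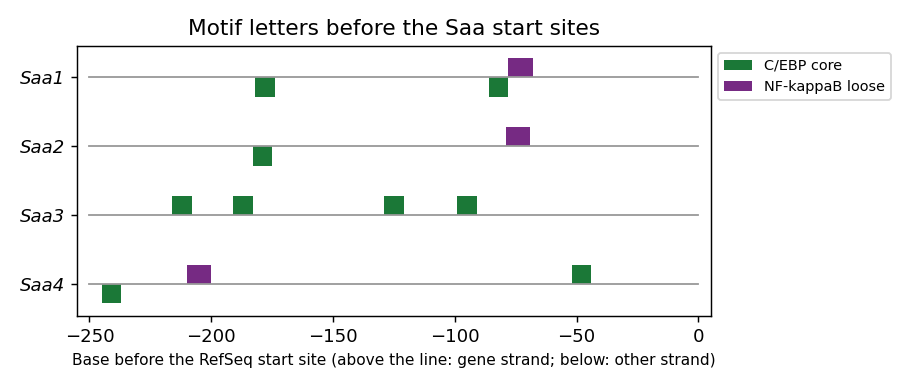
Positions of the C/EBP core (green) and of the loose NF-kappaB form (purple) in the 250 bases before the RefSeq start of each Saa gene, above the line on the strand of the gene and below it on the other strand. Saa1 and Saa2 share the placement of 1 core and of the purple form, and Saa3 has 4 cores.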

How the data were processed

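RNA from the livers of 6 mice, 3 per group, was sequenced from TruSeq libraries as single-end reads of 50 nt, per the labels' protocols. The aligner Bowtie2 (version not stated) and the build mm10 come from the submitters' processing notes. Neither the quantification program nor the strandedness is given in the sources used here.

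The authors deposited 1 value per group, and the headers name no unit. The layout is that of a Cuffdiff table, so the values were taken as the authors' FPKM. Per the file headers the deposited log2 ratio divides wildtype by knockout, and its sign was turned round. The deposited p-value and q-value are the authors', and their test statistic is a score that behaves as z, so the SE is the ratio divided by it. Limma on values per library could not be run, and a gene is called at a deposited q under 0.05. The table holds 0 columns of other series. Depth per sample is unknown, so no counting interval can be given. Whether libraries are separate mice rests on the animal numbers in their names.

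The members, lists and tests were chosen with earlier results of these data known. Named genes are the 4 members, for each the 2 genes nearest in ratio (also within 10-fold of its mean FPKM), up to 5 called members of each list or else the one with the smallest p, and tested neighbours within 250 kb. Predicted genes, pseudogenes and microRNAs were not named. Other named genes were chosen after their values were seen. One gene that the rule names is not reported here. Ly6g was not matched, and Tf and Adgre1 were found as Trf and Emr1. Identity came from global alignment with Biopython 1.88. Protein sequences were not used here. Alternatives were pseudocounts, scalings, quantile normalization, a stricter q, a minimum of 1 FPKM and the short list. Recomputed q values were tested on simulated data.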

Additional observations from a re-analysis of the deposited data

How the results depend on the processing

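Each of the 4 members' log2 ratios kept its sign and stayed within 1 SE of its value under all 5 alternatives, which were pseudocounts of 1 and 0.1 FPKM, both scalings to the same sum and quantile normalization. For the scalings this was fixed in advance, because they lower every ratio by 0.19 or 0.12, below the smallest member SE of 0.26. The pseudocounts are small beside the members' FPKM, so little change could follow from them. These settings are thus a weak check on the members. The family sum and the Saa1 share of the pair moved less than their tolerance too (the larger SE of Saa1 and Saa2, and 1 percentage point). The number of genes called lower in all moved from 58 to 32 at a q threshold of 0.01, to 37 in the authors' short list, and to 140 after scaling to equal sums. That scaling also moved the receptors and transducers from 1 call to 2 and the Saa receptors from 2 calls to 0. The same scaling of the marker lists was added after seeing the data, and it moved 3 of their counts of calls (hepatocyte from 0 to 1, macrophage from 2 to 0, stellate cell from 0 to 1). The other 16 of 18 pathway list counts stayed within 1.5 times of their value. Values per library were not used here, so leaving out a replicate could not be run. No paired analysis was possible because the tables hold 1 value per group. Read depth is unknown, and the median SE of 0.279 limits which differences could be called: the smallest called log2 ratio was 0.78 in size.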

Other observations

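Serum amyloid A also binds retinol. Rbp4, the plasma retinol carrier, was at 3449 FPKM in knockout liver and 3828 FPKM in wildtype. The summed level of Saa1 and Saa2 was 32471 FPKM in knockout liver and 254.8 FPKM in wildtype, on either side of Rbp4.

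The list of negative acute phase genes, plasma proteins and the liver enzymes Cps1, Cyp2c29 and Cyp3a11, held no call at the transcript level. Alb, also on the list, is listed at 0 in both groups and was not tested. Of 12 tested negative acute phase genes 0 passed in the authors' deposited table, where 1.08% of all tested genes did. Among the 12, 0 had an unadjusted p under 0.05, where 609 of the 11515 tested genes did, and the median log2 ratio was 0.03. Cps1, a urea cycle enzyme, had the smallest p, at 647 FPKM in knockout liver and 850 FPKM in wildtype (log2 ratio -0.39 ± 0.40). Trf, transferrin, was at 7479 and 5752 FPKM, and Ttr, transthyretin, at 6867 and 7229 FPKM.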
